A study of Arabidopsis thaliana with 39 samples.

Results

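The genes of the TIR1/AFB family (*TIR1* and *AFB1* to *AFB5*) and the gene *CIL2* were followed through 39 small RNA libraries of Arabidopsis thaliana. They were chosen by gene identifier, as the whole receptor family with 1 further gene that carries a pairing site for the microRNA miR393, and not by a threshold on their counts. The choice was made with earlier results of these data known. Together they are 7 of the 37184 genes in the counts, 6 receptors and 1 transcription factor.

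The libraries come from 13 groups of 3 biological replicates in 3 experimental sets. Set 1 holds the wild-type accession, here Col-0 (1), with *lsm1a lsm1b*, *ncb-4*, *upf1-5* and *upf3-1*. Set 2 holds Col-0 (2) with *pab2 pab4*, the deadenylase mutants *ahg2-1* and *ccr4a*, *fy-2* and *rsr1-2*. Plants of both sets were 14 days old and grew on MS plates, whereas set 3, *cstf64-2* and its Col-0 (3), was harvested from soil at 21 days. *LSM1* is a subunit of the cytoplasmic LSM ring that promotes decapping, *NCB* is the plant coilin of Cajal bodies, and *UPF1* and *UPF3* act in nonsense-mediated decay. *AHG2* and *CCR4A* are deadenylases of the PARN and CCR4 kind, *PAB2* and *PAB4* bind the poly(A) tail, and *FY*, *RSR1* (also called ESP1) and *CSTF64* belong to the machinery that forms mRNA 3′ ends. The *upf1-5* and *fy-2* alleles are hypomorphic, and the sterile *cstf64-2* homozygotes were picked by their appearance. Every line carries its mutation in the whole plant, and whole plants were sampled, so fewer cells of a type and less RNA per cell cannot be told apart.

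As background, an auxin receptor of this family is the F-box subunit of an SCF ubiquitin ligase. Once auxin is bound it recruits Aux/IAA repressors for degradation, which releases the auxin response factors (ARF). miR393 pairs with the mRNAs of several of these receptors and of a few bHLH genes such as *CIL2*, and cleaved receptor mRNAs are known to yield secondary siRNAs in a pathway that uses RDR6, SGS3 and DCL4. A read counted here on an exon may be an siRNA of either kind or a piece of degraded mRNA, since all read lengths from 15 bases on were counted together.

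The pairing sites are shown because they are what sets the members apart in sequence. Both genes for miR393 give the same mature 5p strand, printed first with its seed (bases 2 to 8) in capitals. In the sites below it, capitals mark bases that do not form a Watson-Crick pair with miR393, so that lower case is paired. The sequences were read from TAIR10.1, 5′ to 3′ on the strand of the gene.
miR393: tCCAAAGGgatcgcattgatcc
AFB2: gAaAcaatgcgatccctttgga
AFB3: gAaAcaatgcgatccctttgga
TIR1: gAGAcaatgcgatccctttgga
AFB1: gAGAcCatgcgatccctttgga
CIL2: ggGtcaGAgcgatccctttggC
AFB5: TACAACatgAgGtTTGtttgga
AFB4: TCCAATatgAgGtTTGtttggT
The *AFB2* site (chr3:9870237-9870258, plus strand) and the *AFB3* site (chr1:4369085-4369106, minus strand) are the same 22 bases, with 2 bases each that form no Watson-Crick pair. All counts of such bases here include G:U pairs. Both lie opposite miR393 bases 19 and 21, counted from its 5′ end. *TIR1* (chr3:23273727-23273748, minus strand) has 3 and *AFB1* (chr4:1405341-1405362, minus strand) has 4. *CIL2* (chr3:8530587-8530608, minus strand) also has 4, of which 2 are G:U pairs. In all 5 sites the seed is paired throughout. The stretches of *AFB5* (chr5:20334605-20334626, minus strand) and *AFB4* (chr4:12614106-12614127, minus strand) that align with the receptor sites have 11 and 12 such bases of 22, of which 3 each are G:U pairs, and the best match anywhere in these 2 mRNAs has 8 and 7.

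**Figure D1:**
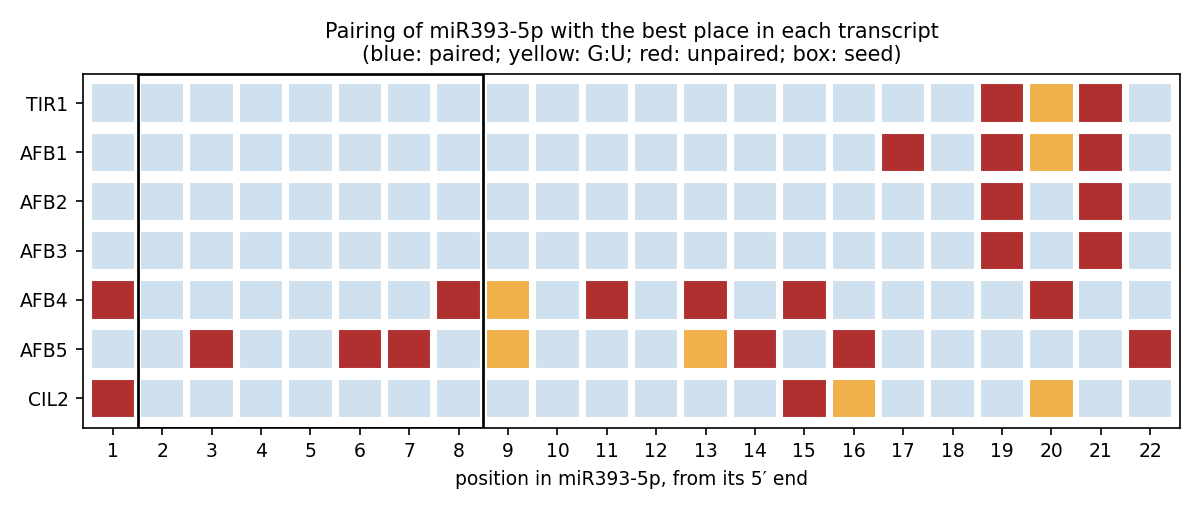
Pairing of each gene with miR393, base by base from the 5′ end of miR393 (x axis), for the 7 genes (rows). Blue is a Watson-Crick pair, yellow a G:U pair and red no pair, and the box marks the seed. The rows of *AFB4* and *AFB5* show the best match anywhere in the mRNA, not the aligned stretch printed above. The seed is blue throughout in the 5 genes with a site, and broken at 1 base in *AFB4* and at 3 in *AFB5*.

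All 5 sites lie in coding exons. They are in exon 3 of *TIR1*, *AFB1* and *AFB2*, exon 4 of *AFB3* and exon 1 of *CIL2*. In the receptors the site sits late in the transcript, at 74.2% of the length in *TIR1* and 84.5% in *AFB3*, while in *CIL2* it sits at 35.0%. A search of the longest transcripts of 27556 protein-coding genes found 7 genes with at most 4 bases outside Watson-Crick pairs, G:U pairs counted among them, namely the 5 members with a site, AT2G33540 (*CPL3*) and AT4G18596. *AFB2* and *AFB3* are the only ones of these with at most 2 on this count. Along the coding sequence *AFB3* is 82.1% identical to *AFB2*, *TIR1* 65.1%, *AFB1* 63.5%, *AFB5* 61.7% and *AFB4* 60.3%. Reads were mapped without mismatches, and 21-base words of the members occur once in the genome for 97.1 to 99.9% of positions, so most reads of this length can be told apart.

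The 7 genes differ in how much of their exons can be counted. *AFB2* (AT3G26810, chr3:9867652-9870782), *TIR1* (AT3G62980, chr3:23273065-23276630), *AFB5* (AT5G49980, chr5:20333897-20336671) and *CIL2* (AT3G23690, chr3:8528609-8531358) share no exon base with another gene. In *AFB3* (AT1G12820, chr1:4368760-4371298) 1533 of 2234 exon bases are free of other genes, in *AFB1* (AT4G03190, chr4:1404887-1407402) 1850 of 2324 and in *AFB4* (AT4G24390, chr4:12613076-12616238) 2402 of 2917. Antisense long non-coding genes (AT1G04977 at *AFB3* and AT4G04455 at *AFB1*) cover the whole miR393 site of these 2 genes, and both were listed at 0 in all 39 libraries. Of the 956 genes that lie wholly inside exons on the opposite strand, 2.20 to 2.51% had any count, against 85.2 to 86.3% of all genes, so the counts behave like ones made without regard to strand, with reads in such overlaps left out. After the site, 524 bases of *AFB2* and 662 of *TIR1* could be counted, but 157 of 325 in *AFB3* and 166 of 454 in *AFB1*, so the totals of *AFB1* and *AFB3* are uncertain and reads near their sites are missing.

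**Figure D2:**
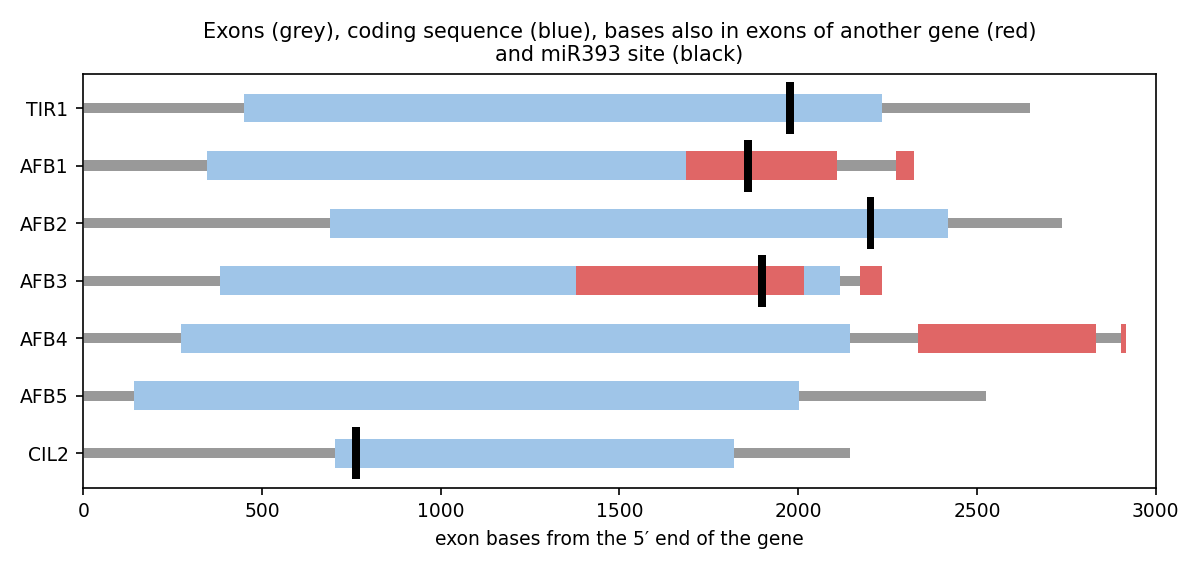
Spliced exons of the 7 genes drawn to scale from the 5′ end (x axis, exon bases), with coding parts in blue, other exon bases in grey, bases shared with a gene on the other strand in red and the miR393 site in black. The site falls inside a shared stretch in *AFB1* and *AFB3*, and *AFB4* and *AFB5* have no site.

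Libraries of set 1 held from 6437260 to 7968503 reads on genes (median 7218653), those of set 2 from 7767365 to 9151932 (median 8900189.5) and those of set 3 from 2015212 to 2323991 (median 2267457). The sum of all counts and counter lines was 1.66 to 1.77 times the reads in the depth table in sets 1 and 2 and 0.91 to 0.97 times in set 3, so levels in set 3 were not tested against the others. No 2 libraries were identical. Of the mutated genes, *PAB2* had 4, 9 and 5 reads in *pab2 pab4* against 86, 87 and 96 in Col-0 (2), and *FY* had 56, 31 and 23 in *fy-2* against 1, 2 and 3. *PAB4* was also lower in *pab2 pab4* (log2 fold change -1.38, adjusted p = 0.0266), *UPF1* was close to Col-0 in the hypomorphic *upf1-5* (log2 fold change -0.11, adjusted p = 0.88), and the others had too few reads to be tested. The 5 green tissue markers were counted well enough to be tested in all 14 comparisons, and the 2 seed storage genes in none.

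Few small RNAs mapped to the members. All 7 together had from 129 to 506 reads per library in set 1 (median 171), from 134 to 266 in set 2 and from 394 to 527 in set 3. A count of 3 or fewer was treated as the floor, and floors cover counting error only. On the scale of normalised reads per kb of countable exon (RPKM, TMM-scaled reads per M reads on genes, divided by length), *CIL2* had 2.96 ± 0.37 (SD, n = 3) in Col-0 (1), *AFB2* 2.14 ± 0.409, *AFB3* 2.1 ± 0.319 and *TIR1* 1.73 ± 0.0875. *AFB5* followed with 1.1 ± 0.284, *AFB1* with 0.846 ± 0.33 and *AFB4* with 0.154 ± 0.0733. These levels per length are of small RNAs and do not measure mRNA. *AFB4*, one of the receptors without a site, had from 0 to 9 reads in set 1, 0 to 6 in set 2 and 0 to 12 in set 3, and was too low to be tested in any comparison.

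In Col-0 (2) the order was similar, with *CIL2* at 3.17 ± 0.416 RPKM (SD, n = 3), *AFB2* at 2.64 ± 0.212, *AFB3* at 2.02 ± 0.468, *TIR1* at 1.44 ± 0.328, *AFB1* at 1.36 ± 0.245 and *AFB5* at 1.14 ± 0.0832. Col-0 (3) from soil differed, and *AFB2* stood at 47.8 ± 5.45, *CIL2* at 33.6 ± 3.31, *AFB3* at 16.6 ± 4.32 and *TIR1* at 7.10 ± 1.51 RPKM. *AFB5* and *AFB1* were at 1.75 ± 1.26 and 0.552 ± 0.492 RPKM. Scaled instead to the library sizes in the study's depth table, *AFB2* had 2.78 ± 0.476 RPM of that size in Col-0 (1), 4.02 ± 0.817 in the second wild type and 25.3 ± 3.24 in the third. Age, medium and the ratio of all counts to sequenced reads all differ between set 3 and the other sets and cannot be told apart. *AFB2* made up 31.8% ± 4.84 (SD, n = 3) of the reads on the receptors in Col-0 (1), 36.9% ± 4.80 in the second wild type and 71.5% ± 5.35 in the third.

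The first question was whether loss of *LSM1* changes small RNAs from these genes. In *lsm1a lsm1b*, reads rose for *AFB2* and for *CIL2*, while *TIR1*, *AFB3* and *AFB5* did not pass the test and *AFB1* and *AFB4* had too few reads for one. *AFB2* had 149, 142 and 166 reads in the mutant and 27, 37 and 30 in Col-0 (1). Every mutant library lay above every wild-type library, which was so for 48.0% of all genes tested. On the normalised scale *AFB2* rose from 5.86 ± 1.12 to 18 ± 1.1 RPM (SD, n = 3), 3.04-fold, or by 1.60 on the log2 scale (SE 0.20, adjusted p = 5.81e-05). The p comes from the quasi-likelihood test of edgeR and was adjusted by the Benjamini-Hochberg method over the 9558 genes tested. RPM here are the TMM-scaled values before division by length, and a call needed an adjusted p under 0.05 with a change of more than 1 in size on the log2 scale. SEs are approximate, computed as the size of the log2 fold change over the root of its F statistic. All p-values measure the spread between these libraries.

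*CIL2*, the transcription factor, had 220, 191 and 255 reads in *lsm1a lsm1b* and 31, 33 and 38 in Col-0 (1). The groups did not overlap here either, which was so in this direction for 48.0% of all genes tested. Its level rose from 6.34 ± 0.793 to 26.1 ± 1.93 RPM (SD, n = 3), with a log2 fold change of 2.03 (SE 0.18, edgeR adjusted p = 4.23e-06). *AFB2* ranked 86th and *CIL2* 44th by log2 fold change among the genes tested in this mutant. Thus 2 of the 5 members tested were called up, where 2.20% of all genes tested were called up and 7.66% were called in either direction. The members were chosen with earlier results of these data known, so this share is not independent evidence. With the library sizes of the study's depth table in place of TMM normalization, 25.9% of all genes were called up and the share of upward calls among all calls went from 28.7% to 98.3%.

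None of the other receptors was called. *TIR1* had 22, 38 and 36 reads against 26, 25 and 23, which overlap, and a log2 fold change of -0.28 (SE 0.30, edgeR adjusted p = 0.549). *AFB3*, whose miR393 site has the same 22 bases as that of *AFB2*, had 26, 28 and 25 reads against 21, 15 and 16. Its raw counts all lay above the wild type, as they did for 48.0% of all genes tested, and its log2 fold change after normalization was -0.06 (SE 0.31, edgeR adjusted p = 0.908). Reads on the site of *AFB3* and on 168 of the 325 bases after it could not be counted, while all 524 after the *AFB2* site could. The 2 genes are therefore not compared over like stretches. *AFB5*, which has no site, had 14, 5 and 15 reads against 20, 13 and 12, giving a log2 fold change of -1.08 that did not pass (SE 0.42, edgeR adjusted p = 0.0842). *AFB1* had 6, 3 and 3 reads against 5, 11 and 9. *AFB4* had 6, 0 and 6 against 3, 2 and 1. Both sets of counts overlap between mutant and wild type. *AFB1* entered the test when all 5 groups of set 1 were fitted together, and was then called down (log2 fold change -1.69, adjusted p = 0.031, edgeR). The median log2 fold change of the 5 members tested was -0.06, beside -0.03 for all genes tested. Within the receptor family the share of reads from *AFB2* went from 31.8% ± 4.84 to 66.2% ± 0.544 (SD, n = 3), and the lowest mutant library (65.7%) lay above the highest wild-type library (35.9%).

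The size of these changes depends on the scaling. Under the depth table scaling the median log2 fold change of all genes in *lsm1a lsm1b* moved from -0.03 to 0.66, and *AFB2* and *CIL2* stood at 2.30 and 2.72. *TIR1* (0.39) and *AFB3* (0.62) turned positive under it without being called. *AFB2* and *CIL2* were called up in all fits that left out 1 library, with log2 fold changes from 1.47 to 1.75 for *AFB2* and from 1.93 to 2.11 for *CIL2*. With Col-0 (2) as the reference, *AFB2* had a log2 fold change of 0.94 and fell under the threshold of size (adjusted p = 0.000686), and *CIL2* stayed over it at 1.56.

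**Figure D3:**
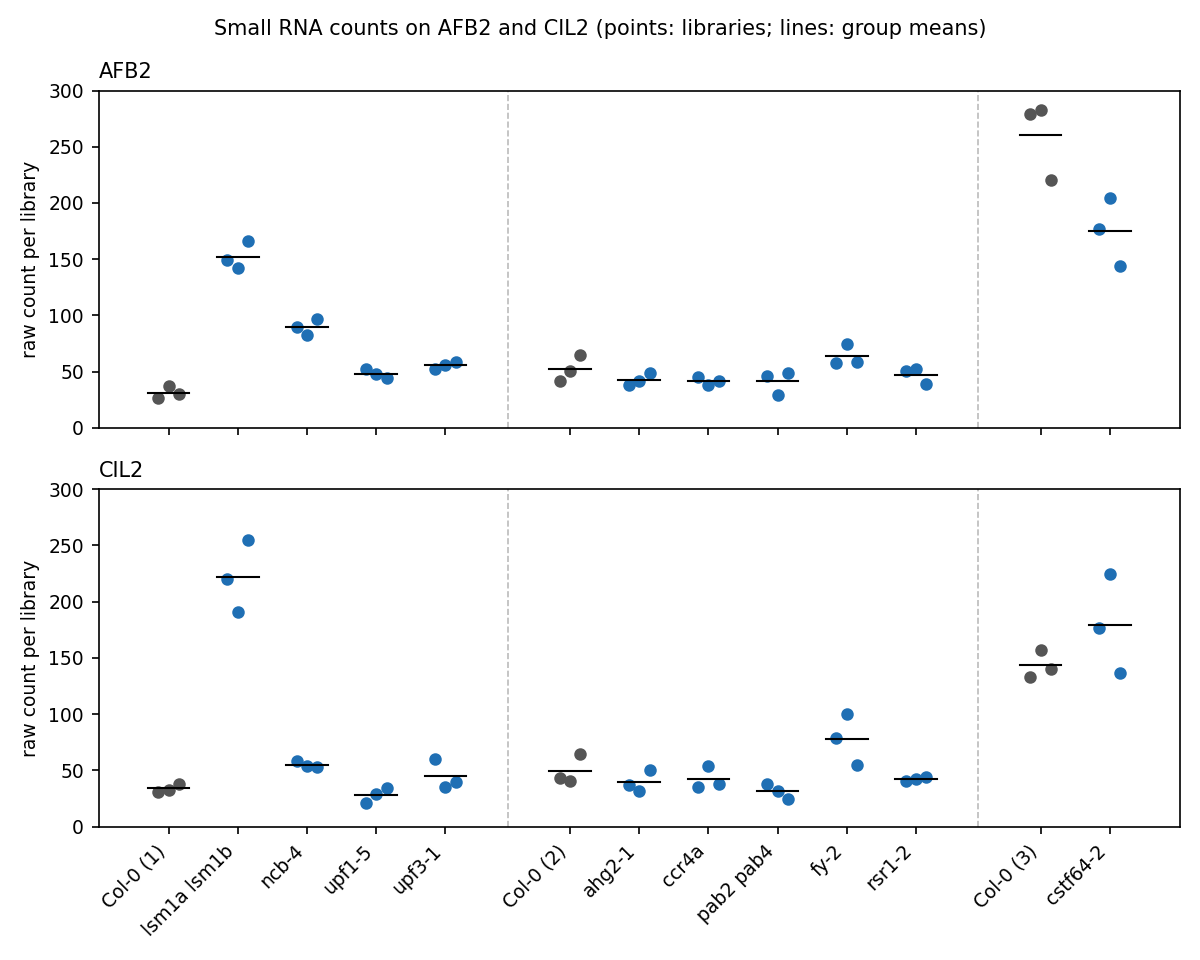
Raw read counts of *AFB2* and *CIL2* (y axis) in each of the 39 libraries by group (x axis), with points for libraries, black lines for group means, grey for Col-0, blue for mutants and dashed lines between sets. In set 1 the *lsm1a lsm1b* libraries stand highest for both genes, from 142 to 166 reads for *AFB2* and from 191 to 255 for *CIL2*, and for *AFB2* those of *ncb-4* come next.

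In *ncb-4* 1 of the 5 members tested, *AFB2*, was called up, where 3.35% of all genes tested were up and 10.6% were called in either direction. *AFB2* had 90, 83 and 97 reads against 27, 37 and 30 in Col-0 (1), all above the wild type. It rose to 12 ± 1.5 RPM (SD, n = 3), with a log2 fold change of 1.01 (SE 0.21, edgeR adjusted p = 0.00142), just past the threshold of size. *CIL2* had 58, 54 and 53 reads against 31, 33 and 38, again all above, but a log2 fold change of 0.18 (SE 0.22, edgeR adjusted p = 0.595). Raw counts of 3 members (*AFB2*, *AFB3* and *CIL2*) lay wholly above the wild type, as did those of 44.7% of all genes tested. *TIR1*, with 23, 34 and 25 reads, and *AFB5*, with 22, 8 and 19, overlapped the wild type. The call of *AFB2* was lost without Col-0 (1) replicate 1 (log2 fold change 0.89), without Col-0 (1) replicate 3 (0.98) and without *ncb-4* replicate 3 (0.91), each time by size and with adjusted p-values from 0.00427 to 0.0116. Against Col-0 (2) the log2 fold change of *AFB2* was 0.37 (adjusted p = 0.108), and the call was lost. Under the depth table scaling the median of all genes moved from -0.02 to 0.54 and *AFB2* stood at 1.56. *CIL2* (0.74, adjusted p = 0.00887) and *AFB3* (0.81, adjusted p = 0.0359) then had adjusted p-values under 0.05 without reaching the threshold of size, and *TIR1* and *AFB5* turned positive. Tissue markers also moved in *ncb-4*. *PYK10*, a root gene, and 1 of the 5 green tissue markers (*LHCB2.1*, a chlorophyll-binding protein) were called up. The 5 green markers summed to 836 to 922 RPM (here not scaled by TMM) in *ncb-4* and 521 to 555 in Col-0 (1), and *PYK10* stood at 63.8 to 70.3 and 16.3 to 23.9. Their part in the *AFB2* result was not tested. In *lsm1a lsm1b* the green markers summed to 394 to 632, with *LHCB1.3* called down, and *PYK10* stood at 27.4 to 49.7. After TMM scaling *PYK10* was not called there (log2 fold change 0.02, SE 0.19, edgeR adjusted p = 0.947).

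The difference between the mutants of set 1 was tested directly. *CIL2* was higher in *lsm1a lsm1b* than in *ncb-4*, with a log2 fold change of 1.83 (SE 0.14, edgeR adjusted p = 6.89e-07), while *AFB2* was higher by 0.58 (SE 0.14, adjusted p = 0.0132), under the threshold of size. This made 1 member of 5 tested, where 3.26% of all genes were called up. The green markers *LHCB2.1* (-1.35) and *RCA* (-1.16) and the root gene *PYK10* (-1.04) were called down in this contrast. Against *upf1-5*, *lsm1a lsm1b* had more reads of *AFB2* (log2 fold change 1.40) and of *CIL2* (2.71), 2 of 5 members tested against 2.77% of all genes. Of the markers only *LHCB2.1* was called against *upf1-5*, upward (3.54). The part of the markers in these contrasts was not tested. Against *upf3-1* the values were 1.39 for *AFB2* and 2.25 for *CIL2*, again 2 of 5 against 3.82% called up. Calls of markers in this contrast are not given here. In TMM-scaled levels, *AFB2* of set 1 fell into an order without overlap between its first 3 steps. These were *lsm1a lsm1b* from 16.7 to 18.8 RPM, *ncb-4* from 10.7 to 13.7 RPM and the other groups at 7.32 RPM or less. The first difference was under the threshold of size, and *ncb-4* was not tested directly against *upf1-5* or *upf3-1*. No share of all genes with such an order is given. The libraries of *upf3-1*, *upf1-5* and Col-0 (1) overlapped. For *CIL2*, *lsm1a lsm1b* stood apart, at 24.7 to 28.3 RPM, and the neighbours *ncb-4*, Col-0 (1), *upf3-1* and *upf1-5* overlapped one another in turn.

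No member was called in the mutants of nonsense-mediated decay. In *upf1-5*, 0 of 5 members tested were called by edgeR and by DESeq2, where 5.29% of all genes were. At an unadjusted p under 0.05, for which no share of all genes is given, there was 1 member. That gene was *CIL2*, with 21, 29 and 34 reads against 31, 33 and 38, overlapping, and a log2 fold change of -0.68 (SE 0.28, edgeR adjusted p = 0.116). *AFB2* had 52, 48 and 44 reads, all above the 27, 37 and 30 of Col-0 (1), as 33.9% of all genes tested were, but its log2 fold change was 0.21 (SE 0.25, adjusted p = 0.662). In *upf3-1*, 0 of 6 members tested were called by either tool, against 12.2% of all genes, and 0 had an unadjusted p under 0.05. *AFB2* had 52, 56 and 59 reads there, again above Col-0 (1), as 45.8% of all genes tested were, and a log2 fold change of 0.25 (SE 0.24, edgeR adjusted p = 0.496). *AFB5*, with 10, 9 and 19 reads, had the lowest value, -0.81 (SE 0.40, edgeR adjusted p = 0.143), and overlapped the wild type. *AFB3*, with 14, 19 and 15 reads, stood at -0.68 (SE 0.36, edgeR adjusted p = 0.164). Under the depth table scaling the median of all genes stood at 0.38 in *upf1-5* and 0.59 in *upf3-1*, and *AFB2* in *upf3-1* at 0.85 (adjusted p = 0.00512), still under the threshold of size. Green tissue markers summed to 427 to 451 RPM (not scaled by TMM) in *upf1-5*, 395 to 434 in *upf3-1* and 521 to 555 in Col-0 (1). In *upf1-5* the green markers *LHCB2.1* (-3.48, edgeR adjusted p = 3.84e-09) and *RCA* (-1.01, adjusted p = 0.000205) were called down. The other green markers and *PYK10* (0.43) were not called there. *PYK10* stood at 31.9 to 46.5 RPM in *upf1-5*, 29.2 to 38.2 in *upf3-1* and 16.3 to 23.9 in Col-0 (1), not scaled by TMM. Calls of markers in *upf3-1* are not given here. The part of the markers in these values was not tested.

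Within set 2 the wild type is Col-0 (2). Calls were made in *pab2 pab4*, where *CIL2* and *AFB5* fell, 2 of 6 members tested against 4.47% of all genes called down and 6.18% called in either direction. *CIL2* had 38, 32 and 25 reads in the mutant against 43, 41 and 65. All mutant libraries lay below the wild type, as for 3.82% of all genes tested, though 38 and 41 are close. *CIL2* went from 6.79 ± 0.892 to 3.17 ± 0.347 RPM (SD, n = 3), with a log2 fold change of -1.13 (SE 0.23, edgeR adjusted p = 0.00178). *AFB5* had 18, 17 and 9 reads against 17, 20 and 26. These overlap, and its log2 fold change of -1.003 (SE 0.34, edgeR adjusted p = 0.0391) was at the threshold. *AFB2*, with 46, 29 and 49 reads against 42, 51 and 65, had an adjusted p under 0.05 but too small a change (log2 fold change -0.83, SE 0.23, adjusted p = 0.0138, edgeR). *AFB3* had 23, 17 and 11 reads against 25, 19 and 22, with a log2 fold change of -0.88 (SE 0.33, edgeR adjusted p = 0.0618). *AFB1* and *TIR1* were also on the lower side, at -0.67 (adjusted p = 0.158) and -0.40 (adjusted p = 0.353), without passing.

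The calls of *pab2 pab4* rest on the scaling. With the library sizes of the depth table the median of all genes moved from -0.05 to 0.39, *CIL2* stood at -0.70 (adjusted p = 0.058), *AFB5* at -0.56 (adjusted p = 0.254), and neither was called. *AFB5* lost its call in each of the 6 fits without 1 library, with adjusted p-values from 0.0529 to 0.141, and *CIL2* was called in all 6. The green tissue markers summed to 919 to 1088 RPM (not scaled by TMM) in *pab2 pab4* and 753 to 808 in Col-0 (2), with 1 of 5 (*LHCB2.1*) called up, and *PYK10* overlapped at 30.3 to 38.6 and 28.0 to 38.0. Their part in the result was not tested.

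In *ahg2-1*, *ccr4a*, *rsr1-2* and *fy-2*, 0 members were called by edgeR or by DESeq2. In *ahg2-1* all 6 members tested had negative log2 fold changes (5 of 6 under the depth table scaling), from -0.78 (*AFB1*, SE 0.37) to -0.23 (*TIR1*, SE 0.30). Of these, 4 had an unadjusted p under 0.05. No share of all genes is given at that level, which is looser than the threshold for calls. The lowest adjusted p was 0.0884, for *CIL2* with 37, 32 and 50 reads against 43, 41 and 65, and 8.83% of all genes were called. The green tissue markers summed to 1115 to 1252 RPM in *ahg2-1* against 753 to 808, with *LHCB2.1* called up, and *PYK10* stood at 47.6 to 68.7 against 28.0 to 38.0 RPM (not scaled by TMM), and their part in these values was not tested. *AFB5* had 15, 13 and 16 reads, all below the 17, 20 and 26 of Col-0 (2), as had 8.95% of all genes tested. In *ccr4a* all 6 were again negative (3 of 6 under the depth table scaling), from -0.65 (*AFB3*, SE 0.32) to -0.09 (*TIR1*, SE 0.28). There 0 members were called, where 0.616% of all genes were. At an unadjusted p under 0.05, with no share of all genes to set beside it, there were 2 members. *AFB2* had 45, 38 and 42 reads there against 42, 51 and 65.

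In *rsr1-2* all 6 members tested were negative under both scalings, from -0.76 (*AFB5*, SE 0.33) to -0.40 (*TIR1*, SE 0.31). There 0 members were called, where 2.44% of all genes were. At an unadjusted p under 0.05, with no share of all genes to set beside it, there were 3 members. The lowest adjusted p was 0.0695, for *CIL2* with 41, 42 and 44 reads. *AFB4* had 5, 5 and 4 reads there and 0, 2 and 1 in Col-0 (2). These few counts do not overlap, which was so for 27.0% of all genes tested, and *AFB4* was not among the genes tested. *AFB1*, with 15 to 16 reads against 17 to 20, lay wholly below the wild type, as did 2.41% of all genes tested (log2 fold change -0.61, SE 0.34, edgeR adjusted p = 0.251). In *fy-2*, 0 of 6 members had an unadjusted p under 0.05, and 1.20% of all genes were called. *CIL2* had 79, 100 and 55 reads against 43, 41 and 65, with a log2 fold change of 0.36 (SE 0.20, edgeR adjusted p = 0.327), and *AFB2*, with 58, 75 and 59 reads, stood at -0.00 (SE 0.19, adjusted p = 0.999). These 5 mutants share their 3 Col-0 (2) libraries, so their negative values are not independent of one another. Under the depth table scaling the median of all genes stood at 0.21 in *ahg2-1*, 0.24 in *ccr4a*, 0.29 in *rsr1-2* and 0.22 in *fy-2*. *TIR1* turned positive under it in *ahg2-1* (0.03), *fy-2* (0.04) and *pab2 pab4* (0.05), and *TIR1*, *AFB1* and *AFB5* did so in *ccr4a* (0.17, 0.13 and 0.15).

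Col-0 (2) itself had more reads of the members than Col-0 (1). All 6 members tested had positive log2 fold changes (5 of 6 under the depth table scaling) and 0 were called by edgeR or DESeq2, where 2.96% of all genes were called. At an unadjusted p under 0.05, for which no share of all genes is given, there were 2 members. *AFB1* had 17, 20 and 17 reads against 5, 11 and 9, without overlap, and its log2 fold change was 1.04 (SE 0.41, edgeR adjusted p = 0.141). *AFB2* stood at 0.67 (SE 0.24, adjusted p = 0.101) and *CIL2* at 0.47 (SE 0.24, adjusted p = 0.267). Raw counts of these 3 members lay wholly above those of Col-0 (1), beside 12.5% of all genes. The median of the 6 members was 0.44, beside 0.02 for all genes tested. *TIR1*, at 0.08, turned to -0.08 under the depth table scaling, where the median of all genes was -0.13.

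**Figure D4:**
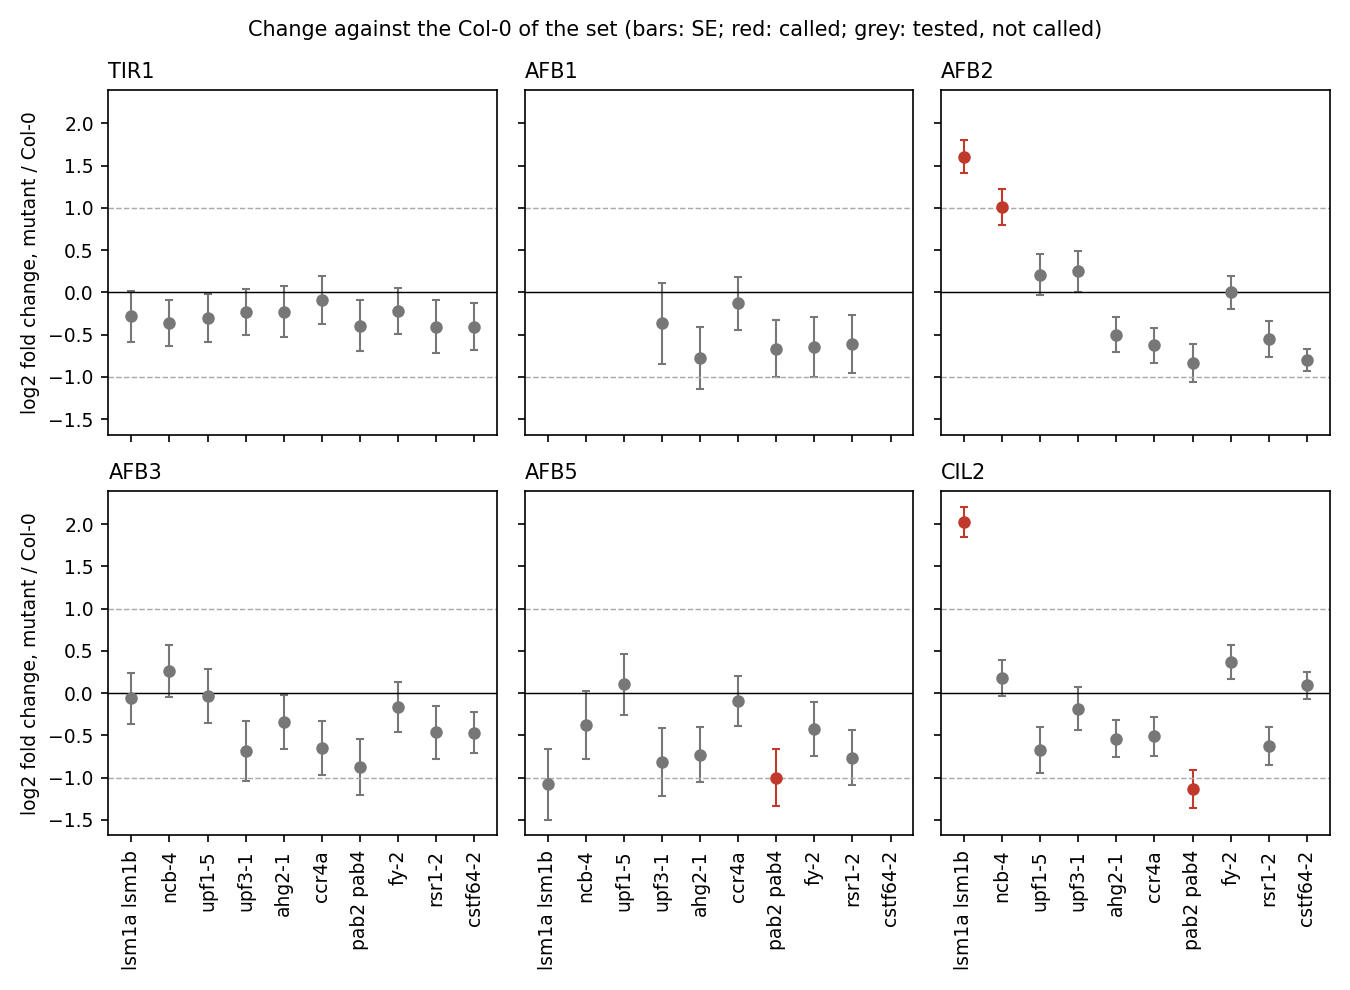
Log2 fold change of each mutant against the Col-0 of its set (y axis) for the 6 members that could be tested, with 1 panel per gene and the 10 mutants along the x axis. Points are edgeR estimates, bars the approximate SE, red points are called, dashed lines mark the threshold of 1 in size, and a missing point was not tested. Red points stand for *AFB2* and *CIL2* in *lsm1a lsm1b*, *AFB2* in *ncb-4*, and *CIL2* and *AFB5* in *pab2 pab4*.

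The last comparison was *cstf64-2* against Col-0 (3), both 21 days old. Here 4 members could be tested and 0 were called by edgeR or DESeq2, where 16.9% of all genes were called. *AFB2* was lower without reaching the threshold of size. It had 177, 204 and 144 reads in the mutant and 279, 283 and 220 in Col-0 (3), without overlap, which was so in this direction for 11.8% of all genes tested. The log2 fold change was -0.80 (SE 0.13, edgeR adjusted p = 0.000632), and 16.5% of all genes were lower with an adjusted p under 0.05. Leaving out 1 library gave values from -0.95 to -0.71, and the depth table scaling gave -0.57 (adjusted p = 0.00619). *CIL2* had 177, 225 and 137 reads against 133, 157 and 140, with a log2 fold change of 0.09 (SE 0.16, edgeR adjusted p = 0.695). *AFB3*, with 34, 51 and 44 reads against 68, 42 and 43, and *TIR1*, with 30, 26 and 43 against 36, 31 and 45, overlapped the wild type. *AFB1* had 4, 4 and 4 reads against 1, 1 and 4, and *AFB5* had 2, 6 and 10 against 2, 10 and 14.

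Convergent neighbours were examined because transcription may run on into them in a mutant of 3′ end formation. The 3′ end of *TIR1* lies 72 bp from that of AT3G62970, that of *CIL2* 291 bp from AT3G23685 and that of *AFB5* 724 bp from AT5G49970. *AFB1*, *AFB3* and *AFB4* overlap their convergent neighbour, and the nearest one to *AFB2* is 24759 bp away. Reads on AT3G23685 were 125, 129 and 128 in *cstf64-2* against 44, 52 and 34 in Col-0 (3), without overlap, as for 33.5% of all genes tested, and *CIL2* beside it was not called. In *lsm1a lsm1b*, where *CIL2* was called up, AT3G23685 had 32, 31 and 25 reads against 9, 6 and 9 in Col-0 (1), also without overlap, and in *ncb-4* it had 19, 24 and 21. Raw counts lay above the wild type in this way for 48.0% and 44.7% of all genes tested in these 2 mutants. Reads on AT3G62970, beside *TIR1*, were 7, 11 and 14 in *cstf64-2* against 3, 0 and 5 in Col-0 (3). These do not overlap, as for 33.5% of all genes tested there.

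*AFB2* and *CIL2* were compared across libraries as a description. Over the 18 libraries of set 2 the correlation of their log2 levels was 0.74 (Pearson). In set 1 the 3 *lsm1a lsm1b* libraries form a cluster of their own, and the correlation over the other 12 was 0.38. Libraries of a group share their genotype and the levels share a library size, so no test was made.

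**Figure D5:**
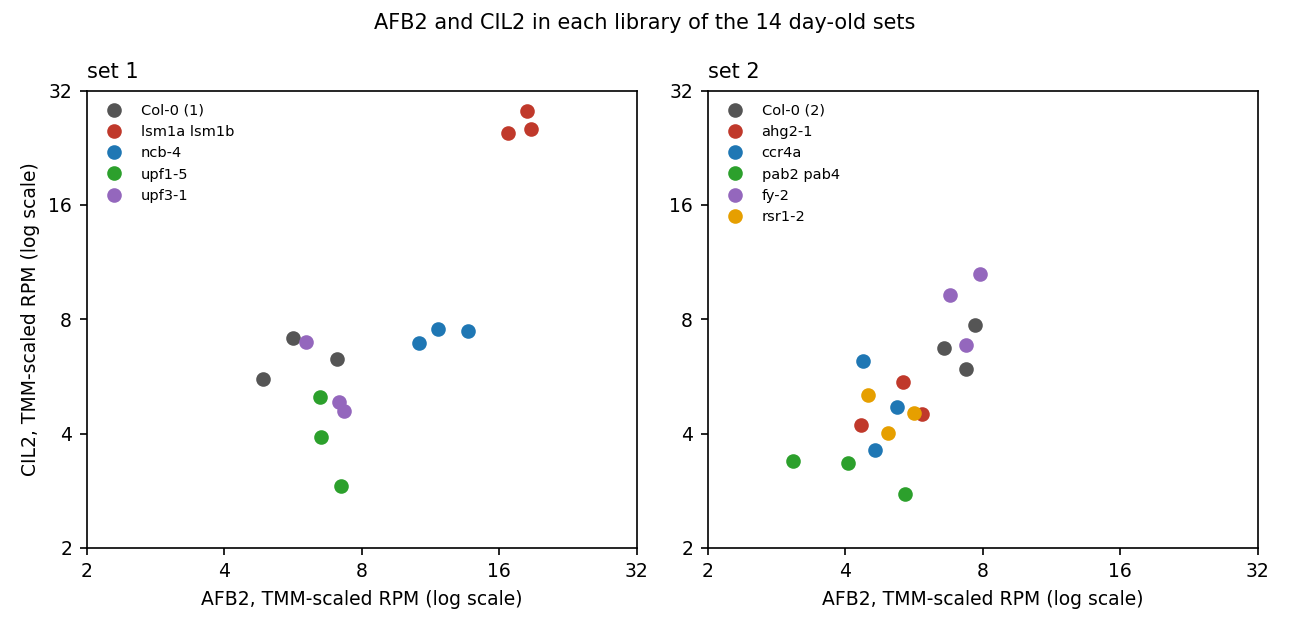
Normalised levels of *CIL2* (TMM-scaled RPM, log axis) against those of *AFB2* (same unit, log axis) in the libraries of sets 1 and 2, 1 point per library. The 3 *lsm1a lsm1b* libraries lie apart at the upper right, at 16.7 to 18.8 RPM of *AFB2* and 24.7 to 28.3 RPM of *CIL2*, and the *ncb-4* libraries are higher in *AFB2* but not in *CIL2*.

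Other parts of the auxin pathway were counted by list, beside the 7.66% of all genes tested that were called in *lsm1a lsm1b*. Of 9 genes for SCF subunits and regulators, 6 were tested in *lsm1a lsm1b* and 1 was called, *CUL1*, the cullin scaffold, with 22, 20 and 19 reads against 37, 28 and 32 (log2 fold change -1.33, SE 0.27, adjusted p = 0.0036, edgeR). Of 29 Aux/IAA repressor genes 7 were tested and *IAA4* was called down (-1.18, SE 0.36, adjusted p = 0.0305). Of 23 ARF genes 14 were tested and 0 were called, with a median of -0.02 beside -0.03 for all genes. Of 11 bHLH genes related to *CIL2*, 2 were tested and 0 called. *COI1*, the jasmonate receptor of the same F-box family, was not called (-1.15, SE 0.48, adjusted p = 0.108).

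In *ncb-4*, where 7.27% of all genes tested were called down and 3.35% up, the calls on these lists were downward, with *ASK2* (an SKP1-like subunit), 3 of 6 Aux/IAA genes tested (*IAA2*, *IAA4* and *IAA7*) and *ARF10*. Their raw counts overlapped with Col-0 (1) in each case. In *upf3-1* (12.2% of all genes called) *CUL1*, *IAA7*, *ARF10* and *COI1* were called down, and in *upf1-5* (5.29% called) *ASK1* was. In set 2 *IAA2* was down in *ahg2-1* (8.83% of all genes called) and *ASK1*, *IAA2* and *IAA7* were down in *pab2 pab4* (6.18% called). The mutants *ccr4a*, *fy-2* and *rsr1-2* had no call on the SCF, Aux/IAA and ARF lists. For *upf3-1*, *upf1-5*, *ahg2-1* and *pab2 pab4* the numbers tested per list are not given, so these calls cannot be read as shares. In *cstf64-2* (16.9% of all genes called) *CAND1*, a regulator of SCF assembly, had 62, 51 and 56 reads against 8, 13 and 12 (log2 fold change 2.11, SE 0.27, adjusted p = 0.000132, edgeR). *IAA16*, *ARF7* and *COI1* were also up there, and *ARF3* was down.

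Further targets of miRNAs were taken from a list that had been chosen on these samples, so they are not independent evidence of a direction. They are *AGO1*, *PHO2* and 3 disease resistance genes. All 5 were tested in *lsm1a lsm1b* and had positive log2 fold changes, with a median of 0.91 beside -0.03 for all genes tested. AT5G63020 had 195, 183 and 186 reads against 14, 14 and 28 (log2 fold change 2.66, SE 0.24, adjusted p = 5.09e-06, edgeR), and AT1G63360 had 42, 40 and 52 against 11, 13 and 13 (1.17, SE 0.29, adjusted p = 0.0109). *AGO1* (0.91), AT5G43730 (0.88) and *PHO2* (0.77) stayed under the threshold of size. In *ncb-4* 0 of the 5 were called by edgeR. In *cstf64-2* AT1G63360 was called down, with 10 to 14 reads against 24 to 45 (-1.58, SE 0.33, edgeR adjusted p = 0.00327). The other targets on this list were not called there. The genes of the secondary siRNA machinery had too few reads for a test in *lsm1a lsm1b*. In *cstf64-2* *DCL4* was called down, with 8 to 15 reads against 21 to 45 (-1.51, SE 0.38, edgeR adjusted p = 0.00952). In that mutant 16.9% of all genes were called.

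The protein-coding genes whose levels over the 15 libraries of set 1 were most like those of each member were found among 5116 genes with a mean of at least 10 counts. For *CIL2* they were AT5G63020 (r = 0.94), AT5G38850 (0.93) and AT5G57130 (0.92), and over the 12 libraries without *lsm1a lsm1b* these values were 0.37, 0.34 and 0.12. For *AFB2* they were AT5G05250 (0.93), *MT1B* (0.90) and AT1G65550 (0.88), with 0.88, 0.74 and 0.69 over the 12 libraries. In set 2 the genes of *CIL2* had r of 0.70, 0.66 and -0.24 with it, and those of *AFB2* had -0.46, -0.23 and -0.43. For *TIR1* the closest was AT2G16940 (0.79, and 0.10 in set 2) and for *AFB5* AT4G38350 (0.82 and 0.56).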

How the data were processed

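Small RNAs were measured in 39 libraries in 13 groups of 3. The authors deposited raw counts per Araport11 gene, with all read lengths together and no normalization. Their methods and processing notes give cutadapt 1.9 for the adapters, sickle for trimming, a minimum length of 15 bases, Bowtie 1.0.0 without mismatches on TAIR10 (up to 10 places), SAMtools 1.1 and HTSeq 0.6.0 for counts on exons, with DESeq2 1.8.2 for their tests. Counter lines for reads outside genes were left out of library sizes and tests, and made up 59.5 to 64.1% of all lines in sets 1 and 2 and 76.2 to 79.7% in set 3. The depth table of the study names ccr4b where the deposit has *ccr4a*.

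Mutants were set against their own Col-0 by the quasi-likelihood test of edgeR 4.0.16 in R 4.3.3, after filterByExpr and TMM normalization, and p-values were adjusted by the Benjamini-Hochberg method over the whole table. Calls needed an adjusted p under 0.05 and a change of more than 1 on the log2 scale, as in the study. Depth limits the precision, since most members had under 100 reads. Alternatives were DESeq2 1.42.0 with and without a beta prior, other scalings and filters, a block for the replicate number, 1 fit per set, the wild type of the other set of 14 days and each library left out. Correlations used log2 levels with a pseudocount of 1. The values without *lsm1a lsm1b* were added after seeing the data. The tests were tested on simulated data.

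The genes named are the members, the called genes of fixed lists, the genes most like each member (up to 3, and not reported here for *AFB3*) and the mutated genes. *CPL3*, AT4G18596 and the neighbouring genes were named from their sequence or position. The members and lists were chosen with earlier results of these data known. Sequences and positions come from TAIR10.1 (Biopython 1.88), and figures were drawn with matplotlib 3.10.9 in Python 3.11.15. The miR393 genes are not among the genes counted, so miR393 itself was not analysed here.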

Additional observations from a re-analysis of the deposited data

How the results depend on the processing

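Of 203 counts of called members under an alternative, 186 were within 1.5 times of the value reported. A count of 0 in both was taken as within, so this number says little about the comparisons with calls. Of 187 fold changes of members with an adjusted p under 0.05, 0 turned direction, 21 lost their call and 1 gained it. In *pab2 pab4*, where 2 members were called, 1 was called with DESeq2's size factors, without a filter, with DESeq2 without a beta prior and with all groups of the set in 1 fit, and 0 with the depth table scaling, with DESeq2 and a beta prior and against Col-0 (1). DESeq2 gave *AFB5* no adjusted p there. Against Col-0 (2), 2 members were called in *upf1-5* (*AFB1* and *CIL2*) and 2 in *upf3-1* (*AFB1* and *AFB5*), all down, where 0 had been called. Fits that left out 1 library called 0 to 1 members in *ncb-4* and 1 to 2 in *pab2 pab4*, and the same number as all libraries in the other comparisons. Without *pab2 pab4* replicate 3, *AFB2* passed the threshold there (log2 fold change -1.04, adjusted p = 0.0116). The causes were not tested.

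The number of all genes called moved more. The depth table scaling gave 2519 in place of 732 in *lsm1a lsm1b*, 2072 in place of 1002 in *ncb-4*, 1062 in place of 488 in *upf1-5*, 2577 in place of 1154 in *upf3-1*, 101 in place of 60 in *ccr4a*, 1156 in place of 602 in *pab2 pab4*, 194 in place of 114 in *fy-2* and 625 in place of 235 in *rsr1-2*. DESeq2 without a beta prior called 422 genes in *lsm1a lsm1b*, 635 in *ncb-4*, 533 in *ahg2-1*, 277 in *upf1-5*, 35 in *ccr4a*, 247 in *pab2 pab4*, 32 in *fy-2* and 60 in *rsr1-2*. In the 9 mutants of sets 1 and 2, upward calls were 27.7% to 75.0% of all calls with TMM and 73.7% to 98.3% under the depth table scaling. In Col-0 (2) against Col-0 (1) the share went from 56.5% to 32.6%, and in the direct comparisons of *lsm1a lsm1b* from 45.4% to 65.2% against *ncb-4* and from 48.3% to 84.4% against *upf1-5*. Leaving out a library moved the count most in *fy-2*, to 173 without Col-0 (2) replicate 3 and 48 without *fy-2* replicate 2.

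With the replicate number as a block, 2 members were called in *lsm1a lsm1b*, 1 in *ncb-4*, 2 in *pab2 pab4* and 0 in the other mutants, as without it. Same-numbered libraries correlated in their deviations from the group means by -0.15 to 0.28, in no mutant over 0.1 for all 3 numbers, so the numbers were not taken as pairs. In *ncb-4* all 3 libraries correlated best with their own number. Depth limits *AFB1*, *AFB4* and *AFB5* most, with 28 reads or fewer in every library.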

Other observations

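Beside the members, 2 protein-coding genes had a miR393 match with 4 bases outside Watson-Crick pairs, G:U pairs included. AT2G33540 (*CPL3*, a phosphatase of the RNA polymerase II tail) had 1 to 20 reads over the 39 libraries, with 3, 3 and 10 in *lsm1a lsm1b* and 3, 9 and 2 in Col-0 (1), which overlap. AT4G18596 had 0 to 3 reads.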
